A study of Homo sapiens with 6 samples.

Results

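The 31 genes described here are regulators and targets of the tumour suppressor p53. They were given by symbol in a fixed list, chosen with earlier results of these data known. All 31 had a row among the 58830 rows of the deposited expression table. RNA was measured in definitive endoderm, the germ layer of gut, liver and pancreas, derived from the established human embryonic stem cell line HuES8. Wild-type cells (DE, 3 libraries) were set beside cells in which the long noncoding RNA GATA6-AS1 had been knocked down (KD, 3 libraries). Both groups received 100 ng/mL Activin A together with 2.5 µM CHIR on day 1, and Activin A without CHIR for 2 further days. CHIR is an inhibitor of GSK3 that switches on Wnt signalling. A BSA content of 0.2% was also given for both groups. The sources used here give neither the means of knockdown, nor a control construct in DE, nor a number of clones.

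p53 is a transcription factor that is kept scarce by MDM2, a ubiquitin ligase, and by its partner MDM4. Damage to DNA and other stresses free p53 from them, and it then switches on genes that halt the cell cycle, repair DNA, change metabolism or start apoptosis. MDM2 and the phosphatase PPM1D are themselves targets, which closes a feedback loop. Human pluripotent stem cells are known for entering apoptosis readily after DNA damage. RNA levels do not report p53 protein or its activity.

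The values are TPM, a transcript abundance scaled for gene length and for the library total. Reads behind them were estimated at between 18640819 and 24510579 per library. RNA from mitochondrial DNA took between 24.6% and 28.8% of TPM in replicates 1 and 2 of both groups, but 38.04% in DE replicate 3 and 36.2% in KD replicate 3. TPM sum to the same total in every library, so a larger mitochondrial part leaves less for nuclear genes. Among the tested p53 genes, 24 of 30 had their lowest value in replicate 3 in both groups, as did 60.8% of all genes tested. GATA6-AS1 itself stood at 388, 421 and 313 TPM in wild-type libraries, against 179.7, 163 and 126 TPM after knockdown, a log2 change of -1.26 (SE 0.164, limma adjusted p = 0.0128, 2-sided exact permutation p = 0.1, the smallest that 3 against 3 allow). Without DE replicate 1 or KD replicate 2 that adjusted p was 0.0717 or 0.0612. All 10 endoderm markers examined were at 1 TPM or more in every library. Their summed level was 26974 to 30932 TPM in DE and 20109 to 21944 TPM in KD. CER1 made up most of it, with means of 23570.1 TPM in DE and 16814.5 TPM in KD. All 11 pluripotent stem cell markers examined were also at 1 TPM or more in every library, so this level does not tell endoderm from stem cells. No label says that the replicates were separate cultures, so p-values measure only how these libraries vary, and that variation may be technical.

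p53 binds DNA as a tetramer, and its sites are pairs of decamers (3 purines, C, 2 bases of A or T, G, 3 pyrimidines) that may be split by a short spacer. The RefSeq promoter windows of GRCh38.p14, from 250 bases before to 50 bases after each start, were available for 26 of the 31 genes. A pair of decamers with the central C and G intact, a spacer of at most 13 bases and at most 2 mismatches in all was present in at least 1 window of 5 of these 26 genes (19.2%), against 3.62% of 27305 genes with a window. With up to 3 mismatches the counts were 11 of 26 (42.3%) and 15.3%. The genes were chosen as members of the p53 pathway, so these shares describe the list. The motif reads the same on both strands. The best matches are shown for the 5 genes with at most 2 mismatches, and for GDF15 and PLK2, which rose in KD, with the decamers in capitals and spacer and flanks in lower case, 5′ to 3′ on the strand of the gene.
DDB2: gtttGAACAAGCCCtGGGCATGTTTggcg
MDM2: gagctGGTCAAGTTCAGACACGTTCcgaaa
FAS: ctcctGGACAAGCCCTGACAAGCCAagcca
AEN: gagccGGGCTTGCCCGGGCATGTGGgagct
FDXR: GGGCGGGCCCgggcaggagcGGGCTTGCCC
GDF15: acAGCCATGCCCGGGCAAGAACtc
PLK2: acaAGACTTGCTTcccGGCCACGCGCgct

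The DDB2 pair, at chr11:47214979-47214999 on the plus strand, had 0 mismatches and a spacer of 1 base, and began 5 bases after a RefSeq start. Matches in MDM2 (chr12:68808923-68808942, plus strand), FAS (chr10:88991309-88991328, plus strand) and AEN (chr15:88621306-88621325, plus strand) had no spacer and 2 mismatches each, and that of FDXR (chr17:74872996-74873025, minus strand) had 2 mismatches around a spacer of 10 bases. GDF15 (chr19:18386186-18386205, plus strand, no spacer) and PLK2 (chr5:58460196-58460218, minus strand, spacer of 3 bases) had 3 mismatches each. PMAIP1, RPS27L, SESN1 and ZMAT3 also had 3 mismatches and are not shown, and they were not called in the main comparison of KD with DE. PHLDA3, which also rose in KD, was among the genes without a window. In the window of CDKN1A the best pair had 4 mismatches, and in that of BTG2 5, which says only that closer pairs are not in these 300 bases. The windows of p53 genes were also rich in G and C: the SP1 box GGGCGG was in 23 of 26 genes (88.5%) against 48.3% of all genes. The TATA box TATAAA was in 1 of 26, GDF15 (3.85% against 14.0%), and both were searched on either strand. All genes here are those with a window and not only those tested, so these shares too describe the list. The 250 bases before the AEN start (chr15:88621090-88621339, plus strand) are given to show the setting of its match, which begins 34 bases before the start, with the decamers in capitals.
AEN: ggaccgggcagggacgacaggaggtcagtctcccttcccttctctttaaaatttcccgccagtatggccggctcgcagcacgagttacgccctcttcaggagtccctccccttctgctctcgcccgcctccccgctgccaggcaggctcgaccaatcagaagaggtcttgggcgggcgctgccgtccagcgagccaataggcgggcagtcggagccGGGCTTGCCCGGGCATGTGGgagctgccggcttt

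The comparison of KD with DE asked which p53 genes differed when GATA6-AS1 was reduced. CDKN1A, PHLDA3, GDF15 and PLK2 rose in KD, by 3.99, 2.69, 3.35 and 1.95 times in mean TPM, and BTG2 fell to 0.599 of its DE mean. In bulk RNA, fewer cells that express a gene and less RNA per cell cannot be told apart. Of the 31 genes, 30 reached 1 TPM in at least 3 of 6 libraries and were tested, and FAS did not. At an adjusted p of 0.05 over 17711 genes, 4 of 30 were called higher, where 1.77% of all genes tested were, and 1 lower, against 1.50%. The median log2 change, on the scale of TPM plus 1, was 0.23 over these 30 genes and -0.01 over all genes, and 23 of 30 lay above 0, against 49.0% of all genes. KD lay wholly above DE for 10 of 30 genes (10.1% of all genes) and wholly below for 2 (10.7%).

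A model with the replicate number as a block compares same-numbered libraries and so takes out the shift of replicate 3. The data show this pairing for replicate 3 but not for replicates 1 and 2. With the block 12 of 30 were called higher (5.88% of all genes) and 2 lower (6.62%). The 8 genes added to the higher set were DDB2, AEN, RRM2B, PMAIP1, ZMAT3, FDXR, TRIAP1 and BAX, and BBC3 was added to the lower set. After median-ratio scaling of the libraries, 7 were called higher (4.96%) and 2 lower, BTG2 and GADD45A (4.88%). With that scaling and the block together, an alternative chosen after seeing the data, 12 were called higher (8.18%) and 3 lower (8.05%), BTG2, GADD45A and BBC3. In TPM recomputed without mitochondrial genes, 13 of 30 lay wholly above DE in KD (14.6% of all genes) and 4, BTG2, GADD45A, BBC3 and XPC, wholly below (14.4%). KD exceeded DE in all 3 same-numbered pairs for 19 of 30 genes, against 23.2% of all genes, and fell short of it in all 3 for 5, against 25.7%.

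**Figure D1:**
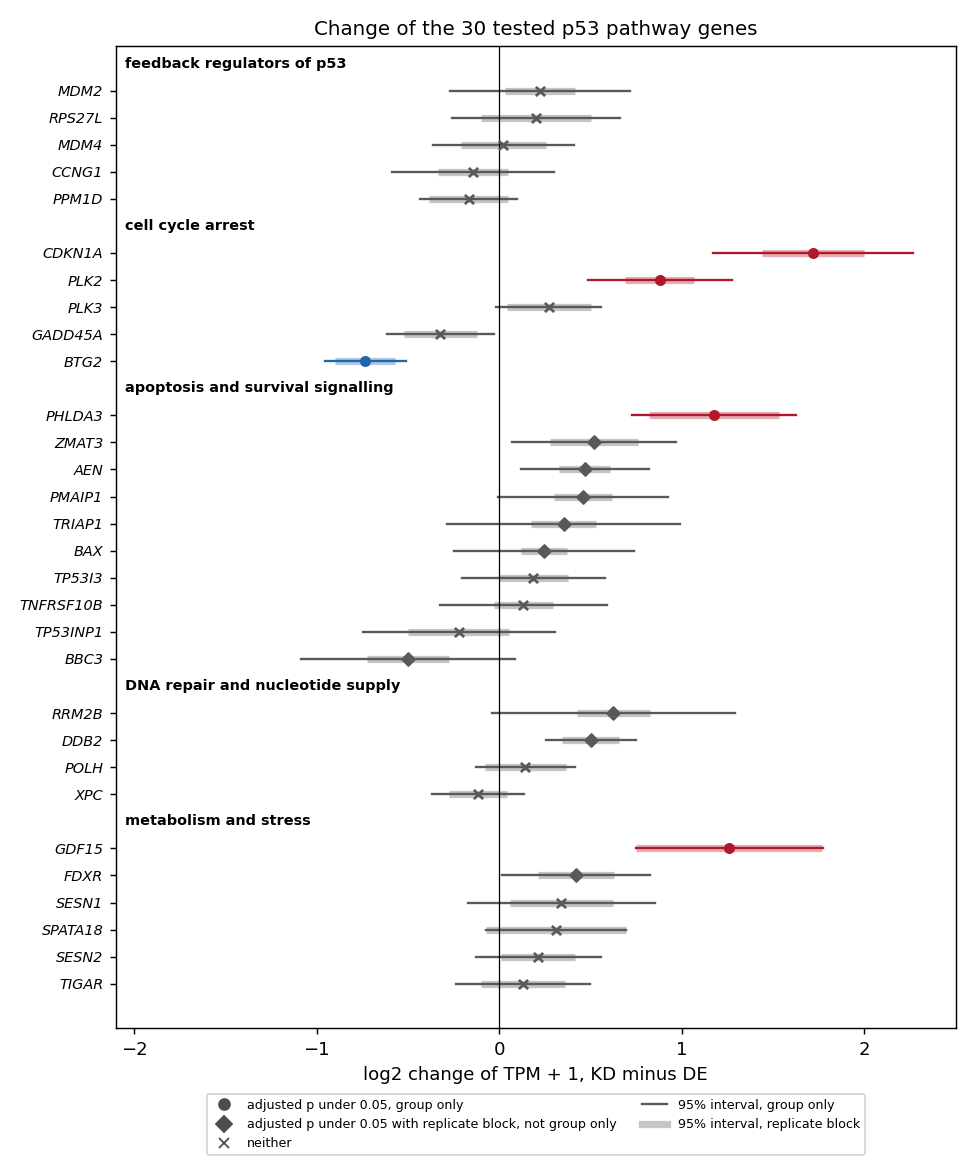
Log2 change (KD minus DE, TPM plus 1) of the 30 tested p53 genes, grouped by role. Thin lines are 95% intervals of the model with group alone and thick bars those with the replicate block; CDKN1A has the largest change (1.72), BTG2 the lowest (-0.73), and diamonds mark the 9 genes called with the block and not with group alone.

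**Figure D2:**
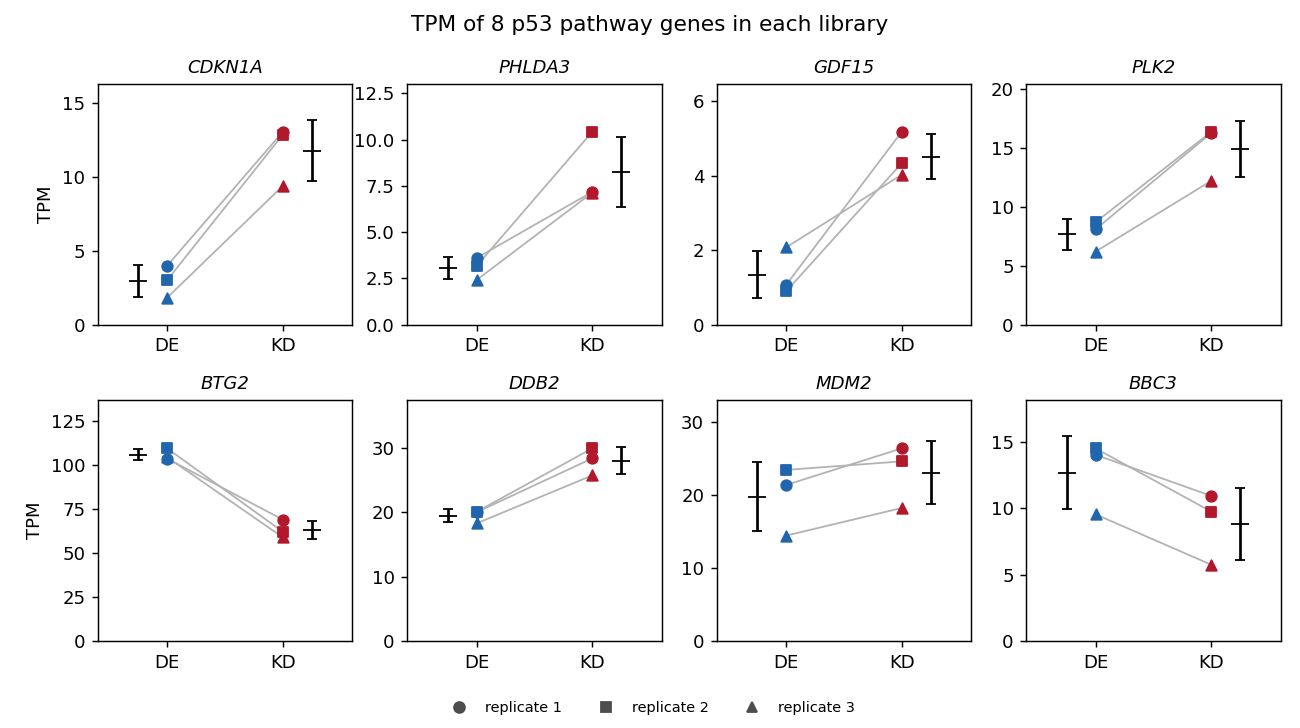
TPM (linear axis from 0) of 8 genes in the 3 DE and 3 KD libraries; markers show the replicate number, grey lines join libraries with the same number, and black bars give mean ± SD. KD lies wholly above DE for CDKN1A, PHLDA3, GDF15, PLK2 and DDB2 and wholly below for BTG2, while MDM2 and BBC3 overlap.

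The feedback regulators did not pass in either direction. Of 5 genes, 0 were called by limma, 0 had an unadjusted p under 0.05, and 0 passed with the block or with voom on estimated reads. Of all genes tested, limma called 1.77% higher and 1.50% lower, so a count of 0 among 5 genes says little about them. MDM2, the ligase that degrades p53, stood at 21.4, 23.5 and 14.5 TPM without knockdown and 26.4, 24.6 and 18.3 TPM with it. The groups overlapped, although KD was above DE in each same-numbered pair, with ratios of 1.23, 1.05 and 1.26. Its log2 change was 0.22 (95% interval -0.27 to 0.72, with the block 0.03 to 0.42, block adjusted p = 0.127 by limma). MDM4, which blocks the activation domain of p53, had 11.3, 11.6 and 8.09 TPM across DE libraries against 11.7, 10.3 and 9.31 TPM across KD libraries, a log2 change of 0.02 (95% interval -0.36 to 0.41). Its sign depended on the libraries kept: it was -0.13 without DE replicate 3 and -0.06 without KD replicate 1 or without replicate 3 of both groups.

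CCNG1, a cyclin that recruits a phosphatase to MDM2, was the most abundant of the 31 genes, at 583 ± 121 TPM in wild-type libraries, against 525 ± 92.3 TPM after knockdown (SD, n = 3 each). Its log2 change of -0.14 had an interval of -0.59 to 0.30. PPM1D, the phosphatase that ends the damage signal, had 18.1 ± 1.38 TPM without knockdown and 16.0 ± 1.33 TPM with it, and KD was below DE in all 3 pairs (log2 change -0.17, 95% interval -0.44 to 0.10). RPS27L, a ribosomal protein paralogue that binds MDM2, stood at 5.19 ± 1.22 TPM across DE libraries against 6.09 ± 1.18 TPM across KD libraries, a log2 change of 0.20 (-0.26 to 0.66). Its paralogue RPS27 had 807 ± 149 TPM in wild-type libraries, against 803 ± 139.7 TPM after knockdown, and reads that such close copies share could have been split between them.

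Genes that act on the cell cycle held both the largest rise and the largest fall. CDKN1A encodes p21, the inhibitor of cyclin-dependent kinases through which p53 stops cells in G1. It lies at chr6:36676460-36687339 on the plus strand of GRCh38 in GENCODE 29. The DE libraries held 3.99, 3.01 and 1.83 TPM and the KD libraries 13.03, 12.8 and 9.37 TPM, and the groups did not overlap, the lowest KD value being 9.37 and the highest DE value 3.99 TPM. Behind these stood an estimated 36 to 87 reads per DE library and 224 to 255 per KD library. The mean rose from 2.94 ± 1.08 to 11.7 ± 2.06 TPM (SD over 3 libraries), giving a log2 change of 1.72 (SE 0.234, limma adjusted p = 0.0138). Ratios within replicates 1, 2 and 3 were 3.27, 4.26 and 5.13. Leaving out DE replicate 2, KD replicate 1 and KD replicate 2 in turn lost the call, with an adjusted p of 0.0501, 0.0589 or 0.0810.

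PLK2, a polo-like kinase that works in centriole duplication and is induced by p53, rose as well. It read 8.09, 8.69 and 6.20 TPM without knockdown and 16.3, 16.4 and 12.2 TPM with it, without overlap and with replicate 3 lowest in both groups. The pair ratios were even, at 2.01, 1.88 and 1.97, and the log2 change was 0.88 (SE 0.169, limma adjusted p = 0.0406, with the block 0.00271). Its call held without KD replicate 3 (adjusted p = 0.0463) and was lost without any other single library, with adjusted p up to 0.186 without KD replicate 2. PLK3, its stress-responsive relative, had 7.30 ± 0.409 TPM across DE libraries against 9.04 ± 0.940 TPM across KD libraries and did not pass, although the groups did not overlap (log2 change 0.27, 95% interval -0.02 to 0.56).

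BTG2, an antiproliferative protein that brings the deadenylase complex to mRNAs, went the other way. It lies at chr1:203305491-203309602 on the plus strand. The DE libraries held 104, 109.6 and 105 TPM and the KD libraries 69.1, 62.2 and 59.0 TPM. All KD values were below all DE values, and replicate 3 of DE was not low. The fall, from 106 ± 3.15 to 63.4 ± 5.15 TPM (SD, n = 3 each), was a log2 change of -0.73 (SE 0.0943, limma adjusted p = 0.0125, with the block 0.00296), and was not called without DE replicate 1 (0.0766) or KD replicate 2 (0.0874). GADD45A, a damage-induced protein that binds PCNA and p21, also lay wholly lower in KD, at 27.4, 26.4 and 24.9 TPM against 33.1, 38.1 and 28.7 TPM. It missed the threshold (log2 change -0.32, limma adjusted p = 0.272, with the block 0.0566), but was called lower after median-ratio scaling (adjusted p = 0.0277).

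**Figure D3:**
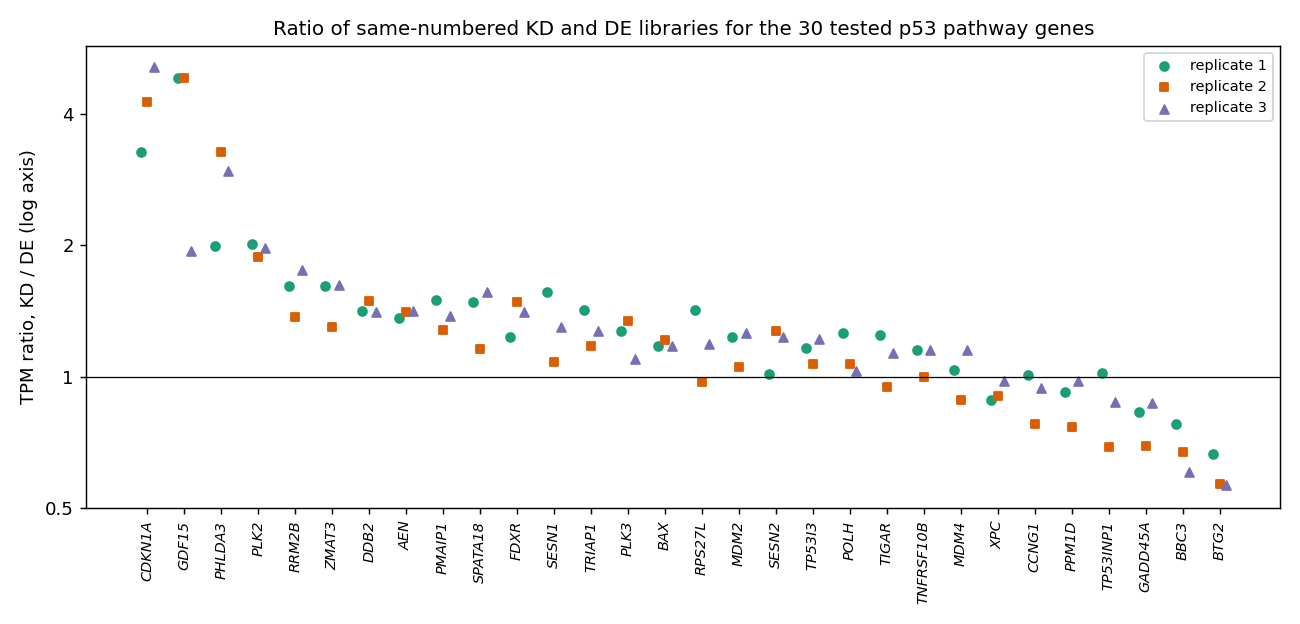
Ratio of TPM in KD to TPM in DE (log axis) within replicates 1, 2 and 3 for the 30 tested p53 genes, ordered by the ratio of means. CDKN1A, GDF15, PHLDA3 and PLK2 lie above the rest, and BTG2, BBC3, GADD45A, PPM1D and XPC are the 5 genes below 1 in all 3 pairs.

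Among genes of apoptosis and survival signalling, 1 of 10 tested was called higher and 0 lower, where 1.77% and 1.50% of all genes were. PHLDA3, a PH-domain protein that competes with AKT for membrane lipids and so restrains its survival signal, lies at chr1:201464383-201469237 on the minus strand. It read 3.61, 3.18 and 2.42 TPM in wild-type libraries, against 7.18, 10.4 and 7.14 TPM after knockdown. KD replicate 2 was the highest, and the other KD libraries were close to each other and above all DE libraries. The log2 change was 1.18 (SE 0.191, limma adjusted p = 0.0230), on an estimated 49 to 81 reads in DE and 127 to 213 in KD. In GENCODE 29 an overlapping noncoding RNA on the same strand shares 19.1% of its exon bases, and reads there may have been counted for either gene. Its call held without DE replicate 3 (adjusted p = 0.0428) and was lost without each other library, from 0.0503 without KD replicate 3 to 0.101 without KD replicate 2.

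The BH3-only proteins, which trigger mitochondrial apoptosis, went in opposite directions within pairs. BBC3, which encodes PUMA, stood at 14.0, 14.5 and 9.54 TPM without knockdown and 10.9, 9.75 and 5.76 TPM with it. PMAIP1, which encodes NOXA, stood at 48.7, 62.4 and 39.8 TPM across DE libraries against 72.8, 80.03 and 54.9 TPM across KD libraries. Both overlapped between groups, yet every same-numbered pair went down for BBC3 (ratios 0.780, 0.673 and 0.603) and up for PMAIP1 (ratios 1.50, 1.28 and 1.38). Neither passed with group alone (log2 changes -0.50 and 0.46, limma adjusted p = 0.421 and 0.334), and with the block BBC3 was called lower (0.0230) and PMAIP1 higher (0.00984). BAX, a pore-forming protein of mitochondrial apoptosis, read 76.9, 75.7 and 51.9 TPM in wild-type libraries, against 90.2, 91.6 and 61.1 TPM after knockdown, with pair ratios of 1.17, 1.21 and 1.18. Its log2 change of 0.24 missed the threshold with group alone (limma adjusted p = 0.728) and passed with the block (0.0345).

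AEN, a nuclease of apoptotic DNA breakdown whose promoter match is printed above, read 33.9, 34.8 and 26.5 TPM without knockdown and 46.2, 48.9 and 37.5 TPM with it, without overlap. Its pair ratios were 1.36, 1.40 and 1.42, and its log2 change of 0.47 missed the threshold with group alone (limma adjusted p = 0.177) and was called with the block (0.00666) and after median-ratio scaling (0.00679). ZMAT3, an RNA-binding zinc finger protein that takes part in growth suppression, read 6.77, 7.82 and 4.85 TPM across DE libraries against 10.9, 10.1 and 7.88 TPM across KD libraries, likewise without overlap (log2 change 0.52, limma adjusted p = 0.248, with the block 0.0248, after median-ratio scaling 0.0282). TRIAP1, a small inhibitor of apoptosis that carries lipids in mitochondria, read 35.9, 41.3 and 23.1 TPM in wild-type libraries, against 50.9, 48.6 and 29.3 TPM after knockdown. KD replicate 3 of TRIAP1 lay among the DE values, and the gene was called with the block but not with group alone (log2 change 0.35, limma adjusted p = 0.674 without the block and 0.0315 with it).

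The death receptors gave no call. FAS was low, at 0.265, 0.0845 and 0.126 TPM without knockdown and 0.337, 0.125 and 0.101 TPM with it, which stood for only 2 to 8 estimated reads per library, so that no difference was detectable at this depth. Its promoter match is among those printed above. TNFRSF10B, a receptor for TRAIL, stood at 49.4 ± 10.4 TPM across DE libraries against 54.0 ± 9.71 TPM across KD libraries (SD, n = 3 each), with a log2 change of 0.13 (95% interval -0.33 to 0.59) that turned to -0.05 without DE replicate 3. TP53I3, a quinone oxidoreductase, had 12.8 ± 2.32 TPM in wild-type libraries, against 14.7 ± 2.06 TPM after knockdown (0.19, interval -0.21 to 0.58), and TP53INP1, a nuclear and autophagy protein, 18.9 ± 4.70 TPM without knockdown and 16.0 ± 3.69 TPM with it (-0.22, interval -0.75 to 0.30).

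Of the 4 genes of DNA repair and nucleotide supply, limma called 0 (of all genes, 1.77% higher and 1.50% lower). Of the 4, 1 had an unadjusted p under 0.05 and 1 passed with voom on estimated reads. With the block 2 were called higher (5.88% of all genes). DDB2, which recognises ultraviolet damage in chromatin and has the only perfect match among the promoter windows of these genes, read 20.04, 20.1 and 18.3 TPM across DE libraries against 28.4, 29.9 and 25.7 TPM across KD libraries. The 3 KD libraries lay above the 3 DE libraries with pair ratios of 1.42, 1.49 and 1.41. DDB2 missed the threshold narrowly (log2 change 0.50, SE 0.105, limma adjusted p = 0.0522) and passed with the block (0.00735) and after median-ratio scaling (0.00901). RRM2B, the p53-induced subunit of ribonucleotide reductase, read 25.3, 28.8 and 14.4 TPM in wild-type libraries, against 40.8, 39.4 and 25.3 TPM after knockdown. Both of its replicate 3 libraries were far below their groups, so KD replicate 3 fell within the DE range, and RRM2B missed the threshold with group alone (log2 change 0.63, limma adjusted p = 0.364). It was called with the block (0.00803) and without replicate 3 of both groups (0.0250).

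The other repair genes did not pass with or without the block. XPC, which detects distorted DNA for nucleotide excision repair, had 27.7 ± 2.40 TPM without knockdown and 25.5 ± 1.45 TPM with it (SD, n = 3 each), with a log2 change of -0.12 (95% interval -0.37 to 0.14). In GENCODE 29 an antisense gene covers 23.8% of the exon bases of XPC, and whether counting used strand is not stated in the sources used. POLH, a polymerase that copies past ultraviolet lesions, had 9.03 ± 0.763 TPM across DE libraries against 10.1 ± 0.538 TPM across KD libraries (0.14, interval -0.13 to 0.41).

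In the set of metabolism and stress genes GDF15 rose. This secreted cytokine of the TGF-beta family is induced by p53 and also by the integrated stress response. It read 1.07, 0.896 and 2.08 TPM in wild-type libraries, against 5.18, 4.34 and 4.03 TPM after knockdown. All KD libraries were above all DE libraries, and DE replicate 3 was the highest of its group, unlike most genes. The estimated reads were few, 12 to 28 in DE and 59 to 68 in KD. Its log2 change was 1.26 (SE 0.219, limma adjusted p = 0.0289, with the block 0.0164), and the pair ratios were uneven, at 4.84, 4.85 and 1.94. Without DE replicate 3 the call held (adjusted p = 0.0151), and without any other single library it was lost, with adjusted p from 0.0668 without KD replicate 3 to 0.130 without DE replicate 1.

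FDXR, the mitochondrial ferredoxin reductase, read 11.1, 11.9 and 8.69 TPM without knockdown and 13.7, 17.7 and 12.2 TPM with it. The groups did not overlap, and the gene passed with the block but not with group alone (log2 change 0.42, limma adjusted p = 0.307 without it and 0.0298 with it). SESN1, a sestrin that restrains mTORC1, had 7.46 ± 1.69 TPM across DE libraries against 9.74 ± 2.45 TPM across KD libraries (SD, n = 3 each). Its relative SESN2 had 24.3 ± 3.53 TPM in wild-type libraries, against 28.3 ± 3.59 TPM after knockdown. KD was above DE in all 3 pairs for both, with log2 changes of 0.34 (-0.17 to 0.85) and 0.21 (-0.13 to 0.55), and neither passed with or without the block. TIGAR, a phosphatase that slows glycolysis, had 14.0 ± 2.36 TPM without knockdown and 15.4 ± 2.04 TPM with it (0.13, interval -0.24 to 0.50), and AC008012.1, a protein-coding gene on the same strand, shares 42.6% of its exon bases. SPATA18, a regulator of mitochondrial quality, was low, at 1.69 ± 0.304 TPM across DE libraries against 2.32 ± 0.181 TPM across KD libraries, and did not pass, though its groups did not overlap (0.31, interval -0.07 to 0.69).

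Other genes of the pathway were read from lists set by their role, chosen with earlier results of these data known. Of 52 further p53 targets, 47 were tested, 3 were called higher (1.77% of all genes) and 1 lower (1.50%), with a median log2 change of 0.11 against -0.01 over all genes. SFN, the stratifin that holds cells in G2, rose from 3.97 ± 0.285 to 10.5 ± 0.860 TPM (SD over 3 libraries), giving a log2 change of 1.21 (limma adjusted p = 0.00572). EDA2R, a receptor for ectodysplasin, rose from 2.43 ± 0.234 to 5.53 ± 0.960 TPM (log2 change 0.92, limma adjusted p = 0.0289). TRIM22, an antiviral ubiquitin ligase, rose from 0.325 ± 0.124 to 2.05 ± 0.117 TPM (log2 change 1.20, limma adjusted p = 0.0173). TRIM22 entered the test only through its KD libraries. TP53I11 fell from 121 ± 4.65 to 79.7 ± 0.981 TPM (-0.60, adjusted p = 0.0139). SFN was called without each single library. EDA2R was called only without KD replicate 3 (0.0449), TRIM22 only without DE replicate 2 (0.0494) or DE replicate 3 (0.0370), and TP53I11 only without DE replicate 3 (0.0157) or KD replicate 3 (0.0491). With the block 8 were called higher (5.88% of all genes) and 2 lower (6.62%).

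**Figure D4:**
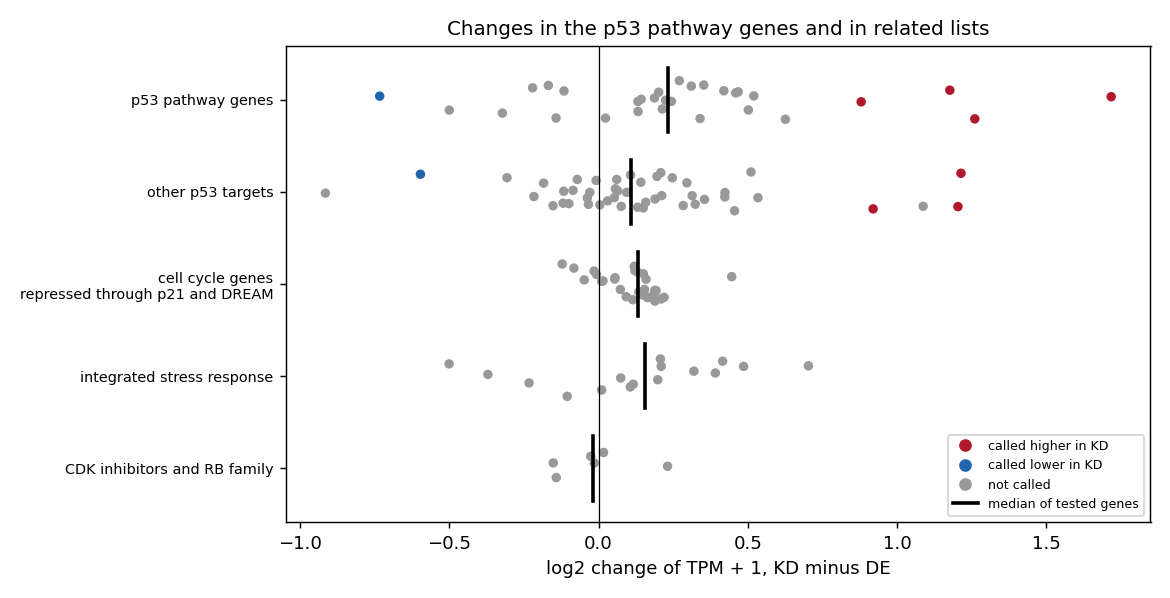
Log2 change (KD minus DE, TPM plus 1) of each tested gene in the 30 p53 pathway genes and in 4 related lists; coloured points were called by limma with group alone and black bars are medians, from -0.02 for the CDK inhibitors and RB family to 0.23 for the p53 pathway genes.

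p21 acts through the DREAM complex to silence cell cycle genes, and 29 of these were read beside CDKN1A. By limma 0 were called in either direction, 1 had an unadjusted p under 0.05, and 1 was called higher with the block (5.88% of all genes) as with voom on estimated reads. With median-ratio scaling and the block together 6 were called higher and 0 lower, where 8.18% of all genes were higher and 8.05% lower. The median log2 change of the 29 was 0.13, against -0.01 over all genes, and 24 lay above 0, as did 49.0% of all genes. BUB1B, a kinase of the spindle checkpoint, had the smallest p, with 101 ± 9.32 TPM in wild-type libraries, against 137 ± 3.41 TPM after knockdown (SD, n = 3 each; log2 change 0.45, adjusted p = 0.0599, with the block 0.0118). The other CDK inhibitors and RB family genes gave no call among 6 tested of 8 (of all genes, 1.77% higher and 1.50% lower). Of the 6, 0 had an unadjusted p under 0.05, and 0 passed with the block or with voom. CDKN2D had the smallest p among them, at 3.93 ± 0.638 TPM without knockdown and 4.78 ± 0.610 TPM with it (0.23, interval -0.13 to 0.60).

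Of 17 tested genes of the BCL2 family and caspases, limma called 0 (of all genes, 1.77% higher and 1.50% lower). Among the 17, 2 had an unadjusted p under 0.05, 2 were called higher with the block (5.88% of all genes) and 1 with voom. The median log2 change of the 17 was 0.04. The integrated stress response, which also induces GDF15, SESN2 and PMAIP1, gave no call among 16 tested genes (of all genes, 1.77% higher and 1.50% lower). Of the 16, 1 was higher and 2 lower at an unadjusted p under 0.05. With voom 2 were called higher and 1 lower, where 946 and 904 of all genes were. Their median log2 change was 0.16, and 12 of the 16 lay above 0, against 49.0% of all genes. With the block 4 were called higher (5.88% of all genes) and 2 lower (6.62%), and ATF3, a transcription factor of this response, had the smallest p, at 17.6 ± 1.90 TPM across DE libraries against 12.1 ± 0.777 TPM across KD libraries (log2 change -0.50, adjusted p = 0.0767, with the block 0.0244).

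Markers of other cells moved with the groups and stand beside the p53 genes. Their counts of calls are set against 1.77% of all genes tested called higher and 1.50% called lower. Of 11 pluripotent stem cell markers, 7 were called higher in KD and 0 lower, and their summed level was 2630 to 3227 TPM in DE and 3768 to 4241 TPM in KD. Of the 10 endoderm markers 5 were called lower and 0 higher. The 7 mesoderm markers summed to 92.6 to 114 TPM in DE and 142 to 148 TPM in KD (2 called higher, 1 lower), with MESP1 and MEOX1 under 1 TPM in all libraries. KDR made up most of that sum, with means of 83.9 TPM in DE and 121.75 TPM in KD. KDR and TBX5 were the 2 called higher, and HAND1, which fell from 4.30 to 0.746 TPM, was the 1 called lower. The 6 trophoblast markers summed to 50.9 to 58.6 and 22.8 to 27.9 TPM (0 higher, 2 lower), with KRT7, TFAP2A, CGA and CGB5 under 1 TPM throughout. The 5 visceral endoderm markers summed to 4.45 to 6.58 and 1.76 to 1.92 TPM (0 higher, 1 lower), with AFP, TTR, APOB and FGB under 1 TPM. Fibroblast genes COL3A1, DCN, LUM and POSTN and neuroectoderm genes SOX1, NEUROD1, NEUROG2, DCX and MAP2 were under 1 TPM in every library. The remaining members, COL1A1 and COL1A2 (fibroblast) and PAX6 (neuroectoderm), were above 1 TPM in every library. Wild-type means were 18.1 TPM for COL1A1, 19.3 TPM for COL1A2 and 2.54 TPM for PAX6. After knockdown the same genes averaged 14.4, 20.9 and 2.12 TPM. Neither list gave a call. The part of these shifts in the changes of the p53 genes was not tested.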

How the data were processed

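RNA-seq was read from 3 wild-type (DE) and 3 GATA6-AS1 knockdown (KD) libraries of HuES8-derived endoderm. The authors deposited TPM per gene, per the file headers. Per the submitters' processing notes, the tools were HISAT2 2.1.0, DESeq2 and featureCounts and the build was GRCh38, with no role or order; for annotation release and strand setting, the sources used here give nothing. Genes that reached 1 TPM in 3 or more of the 6 libraries were tested on log2(TPM + 1), a scale that understates the change of low genes, with limma 3.58.1 (empirical Bayes with a trend, R 4.3.3) and Benjamini-Hochberg adjustment at 0.05 over all 17711 genes tested. SD is over the 3 libraries of a group, SE is that of the KD minus DE difference in the limma fit over all 6 libraries, and intervals are 95%.

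Members and lists were chosen with earlier results of these data known. Values in every library were given for genes called with or without the replicate block and for MDM2, MDM4, BBC3, BAX, FAS and PMAIP1; outside the 31 genes, GATA6-AS1 and, per list, up to 4 called genes (1 with the smallest p where none was called). RPS27 was added after values were seen. Some genes that this rule names are not reported here. TPM keeps no depth: reads were estimated from gene lengths of GENCODE 29, with 88.3% to 89.0% of low values whole within 0.02 reads, and limit the precision of low genes. Same-numbered libraries deviated together (correlations 0.108, 0.144 and 0.347, each above 0.1), and the numbers were treated as pairs. This comes from the data and not from a label. DE replicate 2 with KD replicate 1 reached 0.121, and DE replicate 1 with KD replicate 2 reached 0.0769. Only replicate 3 thus stood out, and the data do not show how replicates 1 and 2 should be paired. In all, 19 alternatives were tried. Counts at an unadjusted p under 0.05 are given without the share of all genes, so they cannot be set against it. The model was tested on simulated data with a coefficient of variation between libraries of 0.08 and no shift of replicate 3. It recovered 40.0% of log2 changes of 0.5, 98.5% of those of 1 and 100% of those of 2. Changes of these sizes had been given to 67, 67 and 66 genes of the 14492 run, and 19 other genes were called falsely. Those 19 are to be set against the changes recovered and not against all genes run. Calls of the main model can thus include false ones. With 40.0% recovered at 0.5, a change of that size or less can go uncalled. Promoter windows came from RefSeq (GRCh38.p14) and were searched with Python 3.11.15.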

Additional observations from a re-analysis of the deposited data

How the results depend on the processing

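Counts of calls moved more than directions, and the cause was not tested. All genes called higher (314) and lower (265) numbered 1042 and 1173 with the replicate block, 879 and 864 after median-ratio scaling, 1448 and 1426 with both (chosen after seeing the data), 860 and 875 after quantile normalization, 946 and 904 with voom on estimated reads, 874 and 808 without mitochondrial genes, 507 and 705 without replicate 3 of both groups, 132 and 107 with no filter on low values, where more genes were tested, and 61 to 248 and 24 to 362 without 1 library each. For the p53 genes (4 higher, 1 lower) these were 12 and 2 with the replicate block, 7 and 2 after median-ratio scaling, after quantile normalization, with voom and without mitochondrial genes, 12 and 3 with scaling and block, 7 higher without replicate 3 of both groups, 1 higher with no filter, and 0 to 3 and 0 to 1 without 1 library each. GATA6-AS1 ranged from -1.38 to -1.11 without 1 library each. MDM4 turned to -0.0564 without replicate 3 of both groups and ranged from -0.13 to 0.11 without 1 library each; CCNG1 ranged from -0.31 to 0.0003 and TNFRSF10B from -0.0504 to 0.28. GENCODE lengths stood in for the authors' own in the voom reads.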
